A study of Mus musculus with 8 samples.

Results

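The genes described here write, copy and oxidise DNA methylation: the de novo methyltransferase genes Dnmt3a, Dnmt3b and Dnmt3l, the maintenance genes Dnmt1, Uhrf1 and Hells, and the dioxygenase genes Tet1, Tet2 and Tet3. These 9 genes were taken by symbol, whatever their values, and each had 1 row in the female table, which names 23694 genes, and 1 row in the male table, which names 23409. The tables come from RNA-Seq of mouse fetal germ cells at embryonic day 15.5, a stage at which ovarian germ cells are in meiotic prophase and testicular germ cells are arrested prospermatogonia. The study asked what the germ cells lose when they lack Snf5, known by its symbol Smarcb1, the product of which is part of the SWI/SNF remodeller core. There were 4 groups of 2 libraries each (8 libraries), namely control and Snf5 CKO females and control and Snf5 CKO males.

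The labels give the strain background of every sample as C57BL/6, whereas the methods of the study describe a mixed background of C57BL/6, 129/Sv and ICR. All embryos carried the Oct4-EGFP transgene, by which germ cells were sorted from the gonads. The Snf5 CKO embryos were Snf5 fx/Δ with TNAP-Cre. The controls were a mixture of Snf5 fx/+ without Cre, Snf5 fx/+ with TNAP-Cre and Snf5 fx/Δ without Cre, so that some controls carried a single intact Snf5 copy and some carried Cre. TNAP-Cre is knocked into Alpl, the tissue-nonspecific alkaline phosphatase gene, which is active in primordial germ cells and also in other tissues. The study estimated from the first-exon reads of its RNA-Seq that recombination in the sorted cells was incomplete, and less complete in females than in males. The libraries of a group were biological duplicates. Female libraries and male control libraries were each made from pooled embryos, and fewer embryos went into the Snf5 CKO male libraries than into the male controls.

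DNMT3A and DNMT3B add methyl groups to unmethylated CpG sites, and DNMT3L, which has no catalytic activity of its own, stimulates them and is needed for methylation of retrotransposons and imprinted regions in male germ cells. DNMT1 copies methylation to the new strand after replication, UHRF1 recruits it to hemimethylated CpG sites, and HELLS is a remodelling helicase needed for methylation of repeats. The TET dioxygenases oxidise 5-methylcytosine as a step towards its removal. Germ cells lose most of their methylation as they colonise the gonad, and in mice males regain it before birth as prospermatogonia whereas females regain it after birth in growing oocytes.

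Values are FPKM, fragment counts scaled for transcript length and for the fragments mapped in the library, so that levels can be compared between genes of 1 table. The female and male tables were normalised separately, so that levels set side by side across the sexes are a description only. Fold changes are differences of log2(FPKM + 1) between Snf5 CKO and control, which understates the change of genes at low levels, and they were tested with limma over all named loci with a mean of at least 1 FPKM. A gene was called when the log2 fold change was at least 1 in either direction and the Benjamini-Hochberg adjusted p was under 0.05. An exact permutation test of 2 against 2 libraries cannot give a two-sided p below 0.333, and none is reported.

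Smarcb1, the targeted gene, was at 23.4 and 22.3 FPKM in the female controls against 4.24 and 2.47 FPKM in Snf5 CKO females, and at 141 and 167 FPKM in the male controls and 8.73 and 10.1 FPKM in the Snf5 CKO males. It was thus lower in every Snf5 CKO library, with a log2 fold change of -2.48 (adjusted p = 0.000289) in females and -3.90 (adjusted p = 0.00222) in males. Since the deletion removes only the first exon, the remaining FPKM may include reads from the deleted allele. The germ cell markers Ddx4 and Dazl were between 203 and 997 FPKM in all 8 libraries and were not called, but others of the 6 listed were. In females 3 were called higher and 1 lower, and in males 2 were called lower. Ddx4 was nevertheless lower without overlap in both sexes. Its log2 fold change was -0.54 in females (limma adjusted p = 0.0773) and -0.93 in males (limma adjusted p = 0.0363). Dazl was lower in females (-0.39) and higher in males (0.45). By the limma adjusted p alone 3 of the 6 were lower in males. Pou5f1 (Oct4) rose from 8.63 and 16.7 FPKM to 295 and 333 FPKM in females. Mael fell from 670 and 631 to 203 and 140 FPKM in females and from 992 and 1005 to 107 and 148 FPKM in males. Total depth was unknown because no counts were used, and rows without a gene name took from 5.46% to 42.1% of all FPKM per library. In males this share was 6.56% in control and 5.46% in Snf5 CKO for replicate 1, and 42.1% and 35.4% for replicate 2. In females it was 9.94% in Snf5 CKO replicate 1 and from 28.2% to 36.7% in the other libraries. In males all 6 Sertoli cell markers were called higher in Snf5 CKO, with summed levels of 82.8 and 69.5 FPKM in control against 356 and 535 FPKM in Snf5 CKO, and Amh and Ptgds were present in every library. Of the 5 Leydig cell markers 3 were called lower, with sums of 85.7 and 58.2 FPKM in control against 19.2 and 15.1 FPKM, and 3 of 4 tested stromal markers were called lower. In females 3 of 5 tested pre-granulosa markers were called higher, with sums of 6.12 and 8.96 FPKM in control against 24.4 and 23.3 FPKM in Snf5 CKO. By the limma adjusted p alone all 5 were higher. Foxl2 was low but rose too, from 0.328 and 1.13 FPKM to 1.67 and 2.07 FPKM (log2 fold change 0.77, limma adjusted p = 0.0412), which was under the fold limit. These marker counts stand beside 17.2% higher and 21.8% lower of all genes tested in females, and 14.3% and 17.5% in males. The part of the Sertoli, Leydig, stromal and pre-granulosa cells in the values below was not tested. In bulk libraries fewer cells of a type and less RNA per cell cannot be told apart.

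Among the member genes, 3 were called higher and 2 lower of 8 tested in Snf5 CKO females, and 3 were called higher and 2 lower of 9 tested in Snf5 CKO males. Among all genes tested 17.2% were called higher and 21.8% lower in females (39% of 11642 in either direction), and 14.3% higher and 17.5% lower in males (31.8% of 12368), so that calls were frequent in both tables. Dnmt3b and Tet1 rose in both sexes. Dnmt3a rose and Hells and Tet2 fell in females, and Uhrf1 rose and Dnmt3a and Dnmt3l fell in males. The libraries of Snf5 CKO and control did not overlap for 7 of the 8 genes tested in females and for 9 of 9 in males, beside 81.5% and 74.4% of all genes tested. By the adjusted p alone, 4 members were higher and 2 lower in each sex, and of all genes 26.7% were higher and 34.8% lower in females (61.6% in all) and 20.9% higher and 25.3% lower in males (46.2% in all). The largest differences were those of Dnmt3l in males and of Tet1 in females. When all libraries of a table were scaled to a common sum of FPKM over the named rows, the share of higher genes among all male calls went from 45.1% to 34.8%. The 5 male member genes called stayed called. With median-of-ratios rescaling the share among all female calls went from 44.0% to 52.2%, so that higher calls outnumbered lower ones, and Hells and Tet2 were no longer called.

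**Figure D1:**
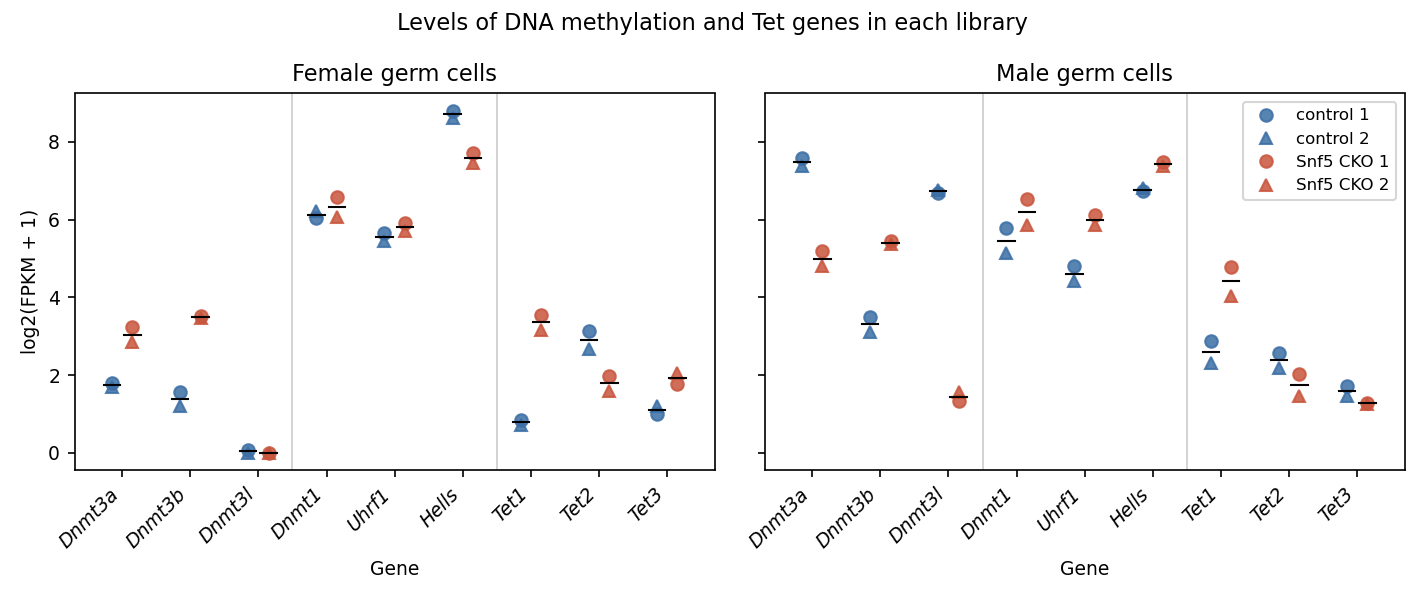
Levels of the 9 genes in each of the 8 libraries, as log2(FPKM + 1), with females on the left and males on the right. Circles are replicate 1, triangles replicate 2, and black bars the mean of the 2 libraries of a group. In males Dnmt3l was at 102 and 108 FPKM in the controls and at 1.54 and 1.95 FPKM in Snf5 CKO, whereas in females it lay at or near 0 in every library.

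Of the de novo genes, Dnmt3l showed the largest change. In male control libraries it was at 102 and 108 FPKM, and in Snf5 CKO libraries at 1.54 and 1.95 FPKM, a decrease of 98.3%. The groups were far apart, and the log2 fold change was -5.27 (SE 0.18, adjusted p = 0.00222). Dnmt3l went from the third place among the members in control males, level with Hells, to the eighth in Snf5 CKO males. In females Dnmt3l was listed at 0.0615 and 0 FPKM in the controls and at 0 in both Snf5 CKO libraries, and it was not tested because its mean was under 1 FPKM. The table marks the estimates of this row as successful in all 4 female libraries. Dnmt3l lies on chromosome 10, and its row spans chr10:78030022-78063622 (mm10), which also holds Aire on the opposite strand. Aire had a row of its own at no more than 0.198 FPKM in any library, and the neighbouring gene Icosl, which is named because its values had been seen, was lower in Snf5 CKO males as well, at 4.44 and 3.56 FPKM in control against 0.458 and 0.416 FPKM (log2 fold change -1.79, SE 0.18, adjusted p = 0.00295).

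Dnmt3a moved in opposite directions in the sexes. In males it was at 191 and 165 FPKM in control, above every other member gene, and at 35.2 and 26.9 FPKM in Snf5 CKO. This decrease of 82.6% had a log2 fold change of -2.49 (SE 0.21, adjusted p = 0.00234). In females Dnmt3a was at 2.48 and 2.23 FPKM in the controls and at 8.36 and 6.26 FPKM in Snf5 CKO, a 3.10-fold increase (log2 fold change 1.30, SE 0.21, adjusted p = 0.00208). The Snf5 CKO males thus stayed above the Snf5 CKO females in FPKM, across separately normalised tables. The row spans chr12:3806565-3914443 in the female table, where it includes a short antisense gene, Dnmt3aos, which had a row of its own at no more than 0.0243 FPKM.

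Dnmt3b rose in both sexes. In females it went from 1.96 and 1.30 FPKM in control to 10.5 and 10.1 FPKM in Snf5 CKO (6.32-fold; log2 fold change 2.12, SE 0.21, adjusted p = 0.000311). In males it went from 10.2 and 7.66 FPKM to 42.5 and 40.4 FPKM (4.63-fold; log2 fold change 2.10, SE 0.20, adjusted p = 0.00269). The 2 Snf5 CKO libraries of each sex lay close together and well above both controls. The rows do not cover the same stretch. The female row spans chr2:153649449-153687730, the annotated extent of Dnmt3b, with the start of the antisense gene Dnmt3bos inside it, whereas the male row spans chr2:153649406-153730424 and takes in all of Dnmt3c (153696652 to 153729907), a rodent copy of Dnmt3b that methylates retrotransposon promoters in male germ cells. No row in either table bears the name Dnmt3c, so that the male value may hold reads of both genes and these cannot be told apart. A row without a gene name at the same male locus was at 1.51 and 1.57 FPKM in the controls and at 2.54 and 2.88 FPKM in Snf5 CKO.

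Set against each other within a library, Dnmt3a and Dnmt3b changed places. Dnmt3a was 18.6 and 21.6 times Dnmt3b in male controls and 0.828 and 0.665 times in Snf5 CKO males. In females the same ratio was 1.26 and 1.72 in control and 0.796 and 0.619 in Snf5 CKO. All 4 Snf5 CKO libraries therefore held more Dnmt3b than Dnmt3a, and all 4 controls less, with the reservation that the male Dnmt3b row may include Dnmt3c. Dnmt3l was 0.533 and 0.651 times Dnmt3a in male controls and 0.0436 and 0.0725 times in Snf5 CKO males, so that it was lower relative to its partner too. These ratios were chosen after the values had been seen and are given without a test.

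**Figure D2:**
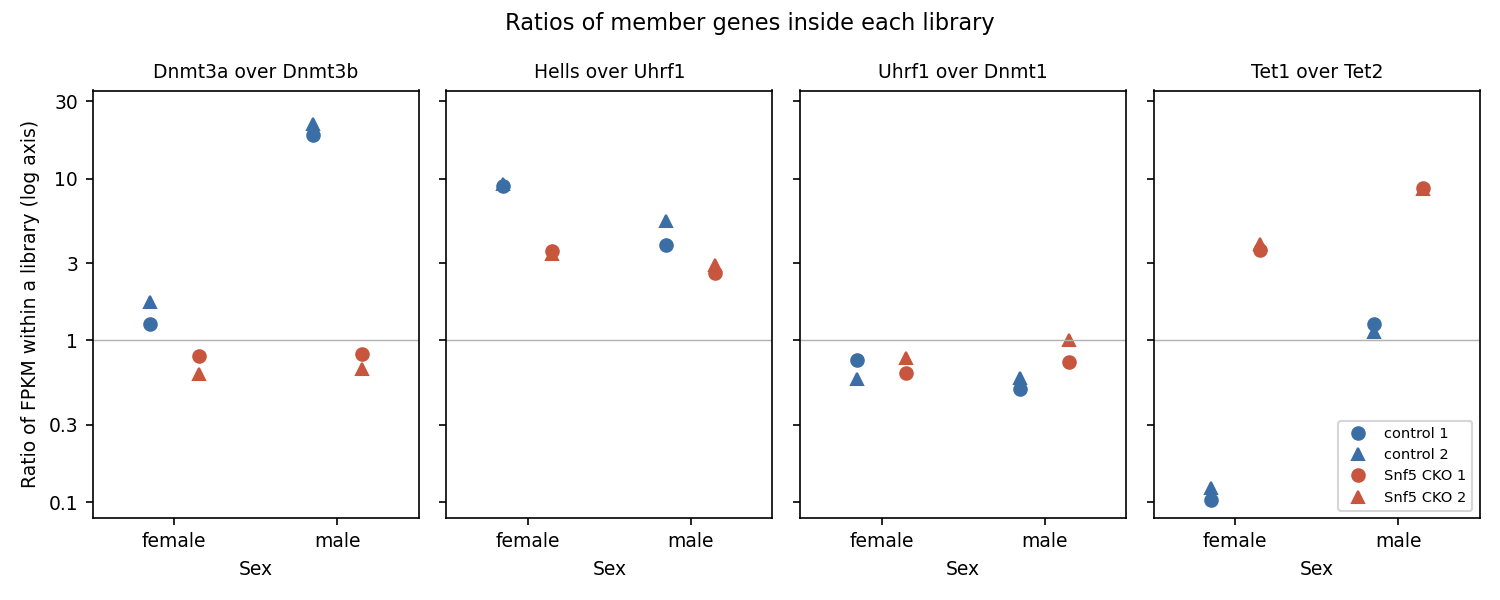
Ratio of the FPKM of member genes within each library, on a shared log axis, by sex (blue control, red Snf5 CKO, circles replicate 1, triangles replicate 2). Dnmt3a over Dnmt3b lay below 1 in all 4 Snf5 CKO libraries, between 0.619 and 0.828, and Tet1 over Tet2 lay between 3.60 and 8.72 in them.

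The sequences around the start sites are shown next for the member that fell the most and for the members that rose in both sexes. RefSeq windows of 300 bases (250 before and 50 after each annotated start, GRCm38.p6) were present for all 9 members, 16 windows in all. CpG sites are in capitals. Dnmt3l, which fell in males, is shown with its 3 annotated starts, and Dnmt3b and Tet1, which rose in both sexes, follow.
Dnmt3l, chr10:78042037-78042336, plus strand: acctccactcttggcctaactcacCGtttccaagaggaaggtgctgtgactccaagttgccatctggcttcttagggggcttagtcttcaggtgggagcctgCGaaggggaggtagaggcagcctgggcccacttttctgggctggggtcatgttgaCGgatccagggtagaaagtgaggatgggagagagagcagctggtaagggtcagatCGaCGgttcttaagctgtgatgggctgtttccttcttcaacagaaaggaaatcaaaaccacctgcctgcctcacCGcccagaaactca
Dnmt3l, chr10:78049592-78049891, plus strand: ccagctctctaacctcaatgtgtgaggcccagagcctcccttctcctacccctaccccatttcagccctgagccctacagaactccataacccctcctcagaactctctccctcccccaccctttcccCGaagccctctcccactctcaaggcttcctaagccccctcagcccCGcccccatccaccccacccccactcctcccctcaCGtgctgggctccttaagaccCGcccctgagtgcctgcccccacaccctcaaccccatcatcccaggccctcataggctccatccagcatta
Dnmt3l, chr10:78055085-78055384, plus strand: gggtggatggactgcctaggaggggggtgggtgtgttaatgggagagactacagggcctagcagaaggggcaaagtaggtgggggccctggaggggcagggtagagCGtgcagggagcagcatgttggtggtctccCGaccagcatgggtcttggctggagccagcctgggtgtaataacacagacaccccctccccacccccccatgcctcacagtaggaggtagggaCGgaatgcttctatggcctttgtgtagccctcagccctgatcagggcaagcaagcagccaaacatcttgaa
Dnmt3b, chr2:153649199-153649498, plus strand: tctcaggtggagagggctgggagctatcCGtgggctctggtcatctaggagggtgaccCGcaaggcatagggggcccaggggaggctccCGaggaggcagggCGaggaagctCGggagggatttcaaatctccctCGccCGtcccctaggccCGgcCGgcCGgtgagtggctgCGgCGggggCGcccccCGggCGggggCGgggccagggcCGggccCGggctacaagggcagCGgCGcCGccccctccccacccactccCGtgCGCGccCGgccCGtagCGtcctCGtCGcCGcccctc
Tet1, chr10:62887275-62887574, minus strand: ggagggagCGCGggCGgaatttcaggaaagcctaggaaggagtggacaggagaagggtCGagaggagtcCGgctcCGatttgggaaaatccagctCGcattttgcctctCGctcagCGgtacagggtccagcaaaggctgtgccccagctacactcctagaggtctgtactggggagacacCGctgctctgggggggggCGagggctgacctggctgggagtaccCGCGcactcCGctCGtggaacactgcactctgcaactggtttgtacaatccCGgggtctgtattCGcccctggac

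The 3 Dnmt3l windows hold 6, 4 and 3 CpG sites, at or below the median of 7 over all 32851 mouse windows, whereas the Dnmt3b window holds 30 and the Tet1 window 17. The Dnmt3a windows hold 46, 47 and 18 CpG sites, and Dnmt3a fell in males as Dnmt3l did. The Tet2 window, with 57, is richer than almost any other (0.152% of all windows hold as many), and the Tet3 window holds 22. The Uhrf1 windows hold 12 and 33, the Hells window 34 and the Dnmt1 windows 2, 12 and 33. Windows of genes that fell thus held both fewer and more CpG sites than those of Dnmt3b and Tet1. A link between CpG content and direction was not tested. Which start was used in these cells was not tested, and the windows carry no methylation values here.

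Of the maintenance genes, Uhrf1 rose in males and Hells fell in females. Uhrf1, on chr17:56303337-56323486, was at 26.9 and 20.2 FPKM in male controls and at 67.9 and 56.8 FPKM in Snf5 CKO males. The groups were well apart (2.65-fold; log2 fold change 1.38, SE 0.21, adjusted p = 0.00739). In females it was at 49.1 and 42.3 FPKM in the controls and at 58.7 and 50.8 FPKM in Snf5 CKO, without overlap but with a log2 fold change of only 0.26 (95% confidence interval -0.17 to 0.68, adjusted p = 0.246). In the fit blocked by replicate number the female adjusted p was 0.034, still under the fold limit.

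Dnmt1 (chr9:20907206-20959888) was not called in either sex. In females the libraries overlapped, at 64.8 and 72.8 FPKM in control against 94.0 and 65.7 FPKM in Snf5 CKO (a log2 fold change of 0.19, 95% confidence interval -0.33 to 0.71, adjusted p = 0.471), and the sign turned to -0.064 without Snf5 CKO replicate 1. In males Dnmt1 was at 53.6 and 34.5 FPKM in the controls and at 91.8 and 56.7 FPKM in Snf5 CKO. The male groups did not overlap, though the second Snf5 CKO library lay just above the first control (log2 fold change 0.73, 95% confidence interval -0.12 to 1.58, adjusted p = 0.129). Within each replicate number the Snf5 CKO library was the higher, and the adjusted p of the fit blocked by number was 0.000268. Without Snf5 CKO replicate 2 the log2 fold change was 1.08 with an adjusted p of 0.0495, which passed both limits.

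Hells was the most abundant member in every group but the male controls. In females it fell from 444 and 391 FPKM in control to 210 and 173 FPKM in Snf5 CKO, a decrease of 54.2% (log2 fold change -1.13, SE 0.22, adjusted p = 0.00433). This call rested on the fold limit, since the log2 fold change was -0.99 without Snf5 CKO replicate 2 and -0.96 after rescaling by median of ratios. In males Hells was at 105 and 110 FPKM in the controls and at 178 and 165 FPKM in Snf5 CKO, the opposite direction (log2 fold change 0.67, SE 0.18, adjusted p = 0.0321), which was under the fold limit and not called. The male adjusted p rose to between 0.137 and 0.203 when any 1 library was left out, and to 0.340 with a common sum. Hells lies on chr19:38930990-38968277 in the female table.

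Within a library Hells was 9.05 and 9.25 times Uhrf1 in female controls and 3.57 and 3.41 times in Snf5 CKO females. The ratio was lower in Snf5 CKO males too, at 2.62 and 2.90 against 3.91 and 5.45 in control, although both genes had higher values there. Uhrf1 over Dnmt1 overlapped between the female groups, at 0.757 and 0.581 in control and 0.624 and 0.774 in Snf5 CKO. In males it was 0.501 and 0.587 in control and 0.740 and 1.002 in Snf5 CKO.

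The maintenance genes are known targets of the cell cycle factor E2F in several cell types, and their windows are shown with E2F words in capitals, because these 3 genes were the only members to hold one. The words searched were TTTCCCGC, TTTGGCGC, TTTCGCGC and TTTGCCGC on both strands, without allowance for mismatch.
Dnmt1, chr9:20952574-20952873, minus strand: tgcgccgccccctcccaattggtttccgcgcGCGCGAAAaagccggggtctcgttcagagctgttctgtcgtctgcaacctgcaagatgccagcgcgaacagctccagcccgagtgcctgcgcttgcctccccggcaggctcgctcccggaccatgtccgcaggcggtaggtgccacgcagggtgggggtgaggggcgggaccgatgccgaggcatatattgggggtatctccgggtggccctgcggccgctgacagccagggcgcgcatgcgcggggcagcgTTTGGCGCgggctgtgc
Uhrf1, chr17:56304063-56304362, plus strand: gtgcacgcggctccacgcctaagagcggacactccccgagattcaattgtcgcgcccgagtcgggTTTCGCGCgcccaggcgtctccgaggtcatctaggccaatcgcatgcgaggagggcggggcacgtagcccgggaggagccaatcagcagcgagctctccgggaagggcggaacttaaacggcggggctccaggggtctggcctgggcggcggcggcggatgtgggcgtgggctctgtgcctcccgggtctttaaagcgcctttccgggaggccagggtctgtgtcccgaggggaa
Hells, chr19:38930740-38931039, plus strand: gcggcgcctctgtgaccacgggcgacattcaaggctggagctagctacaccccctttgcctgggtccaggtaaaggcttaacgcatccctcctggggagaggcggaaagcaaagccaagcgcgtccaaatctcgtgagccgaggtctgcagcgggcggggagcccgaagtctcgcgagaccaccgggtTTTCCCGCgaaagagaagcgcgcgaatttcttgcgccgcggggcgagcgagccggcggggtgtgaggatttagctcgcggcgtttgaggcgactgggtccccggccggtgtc

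The Dnmt1 window holds 2 such words and those of Uhrf1 and Hells 1 each. Of all windows 2.26% hold a word, and of those with at least 12 CpG sites 4.73%. The other 13 member windows hold none, which says only that these letters are not in them. A match is not a bound site. The 3 genes with a word did not move alike in females, where Hells fell while Uhrf1 and Dnmt1 had log2 fold changes of 0.26 and 0.19. In males each of these genes lay above control without overlap, by 0.73 (Dnmt1), 1.38 (Uhrf1) and 0.67 (Hells) on the log2 scale. Of them only Uhrf1 was called there. The 16 proliferation genes, many of which are E2F targets, gave 10 called higher and 0 lower in females, where Top2a alone had an adjusted p under 0.05 (0.00557) with a lower value, and 10 higher and 0 lower in males (limma, with 0 having an adjusted p under 0.05 with a lower value). Of all genes tested 17.2% were called higher in females and 14.3% in males. The summed level of the 16 proliferation genes went from 866 and 820 FPKM to 2009 and 1774 FPKM in females and from 957 and 786 FPKM to 2098 and 1730 FPKM in males. The largest increases were those of the mitotic cyclin gene Ccnb1 (log2 fold change 4.20) and the thymidylate synthase gene Tyms (2.49) in females, and of the ribonucleotide reductase gene Rrm2 (3.25) and the cyclin gene Ccne1 (2.75) in males. Their part in the values of Dnmt1, Uhrf1 and Hells was not tested.

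**Figure D3:**
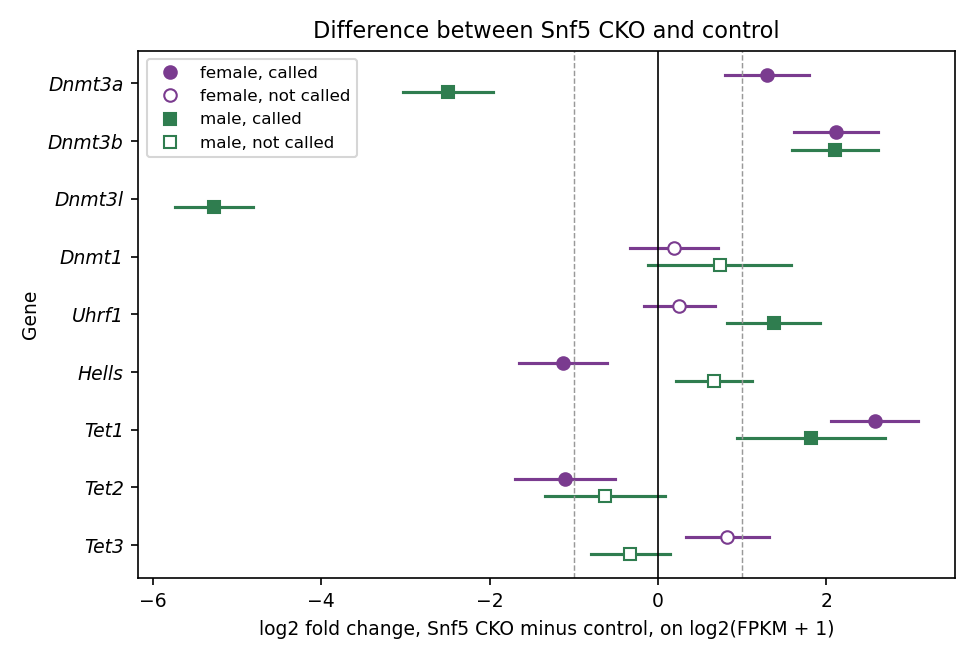
Log2 fold change of Snf5 CKO against control for each member gene with its 95% confidence interval from limma (2 libraries a group), on the log2(FPKM + 1) scale. Filled points were called, open points were not, dashed lines mark a log2 fold change of 1 in either direction, and female Dnmt3l was not tested. Dnmt3b and Tet1 lay to the right in both sexes, and Dnmt3a, Hells and Tet3 lay on opposite sides in the 2 sexes.

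Of the dioxygenase genes, Tet1 rose in both sexes. In females it was the lowest member after Dnmt3l in control, at 0.799 and 0.647 FPKM, and reached 10.7 and 7.98 FPKM in Snf5 CKO (12.9-fold; log2 fold change 2.57, SE 0.21, adjusted p = 0.000188). In males it rose from 6.30 and 3.99 FPKM to 26.7 and 15.3 FPKM (4.08-fold; log2 fold change 1.82, SE 0.34, adjusted p = 0.0123). The male replicates were spread more widely than the female ones, and the male adjusted p was 0.0892 without the filter on low values and 0.0828 on linear FPKM. Tet1 lies on chr10:62804570-62899154 in the female table.

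Tet2 (chr3:133463677-133546038 in the female table) fell in females, from 7.78 and 5.32 FPKM in control to 2.98 and 2.03 FPKM in Snf5 CKO (61.8% lower; log2 fold change -1.10, SE 0.25, adjusted p = 0.00805). The call was lost on the fold limit without control replicate 1 (-0.87), without Snf5 CKO replicate 2 (-0.91) and after rescaling by median of ratios (-0.97), and on the adjusted p without the filter (0.111). In males Tet2 was at 4.97 and 3.52 FPKM in control against 3.06 and 1.77 FPKM in Snf5 CKO, lower in both and without overlap (log2 fold change -0.63, 95% confidence interval -1.34 to 0.08, adjusted p = 0.121). In the blocked fit the male adjusted p was 0.00948, still under the fold limit.

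Tet3 was low throughout. In females it was at 0.992 and 1.29 FPKM in the controls and at 2.44 and 3.18 FPKM in Snf5 CKO (a log2 fold change of 0.83, SE 0.21, adjusted p = 0.0122), which passed the adjusted p and not the fold limit. At such levels the added 1 FPKM weighs on the fold, and with an added 0.1 FPKM the log2 fold change was 1.23 and the gene was called. In males the values were 2.31 and 1.76 FPKM in control against 1.45 and 1.38 FPKM in Snf5 CKO (a log2 fold change of -0.33, 95% confidence interval -0.80 to 0.15, adjusted p = 0.206). Tet3 lies on chr6:83362374-83457081 in the female table.

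The leading dioxygenase gene changed with the genotype in females. Tet1 was 0.103 and 0.122 times Tet2 in female controls and 3.60 and 3.93 times in Snf5 CKO females. In males it was 1.27 and 1.13 times Tet2 in control and 8.72 and 8.67 times in Snf5 CKO. Tet1 held 8.35% and 8.91% of the summed FPKM of the 3 Tet genes in female controls and 66.4% and 60.5% in Snf5 CKO females, and 46.4% and 43.0% in male controls and 85.5% and 83.0% in Snf5 CKO males. The replicates of every group lay closer to each other than to the other genotype.

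Taking the 9 genes as a whole, the de novo genes made up 60.3% and 61.7% of their summed FPKM in male controls and 17.7% and 18.9% in Snf5 CKO males. The maintenance genes went from 37.0% and 36.2% to 75.4% and 76.1% there. In females the maintenance genes held 97.5% and 97.9% in control and 91.2% and 90.7% in Snf5 CKO, and the de novo genes 0.788% and 0.683% in control and 4.75% and 5.13% in Snf5 CKO. The female and male libraries thus lay closer together in Snf5 CKO than in control in both shares. The Tet genes held 1.40% to 6.96% in all 8 libraries.

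**Figure D4:**
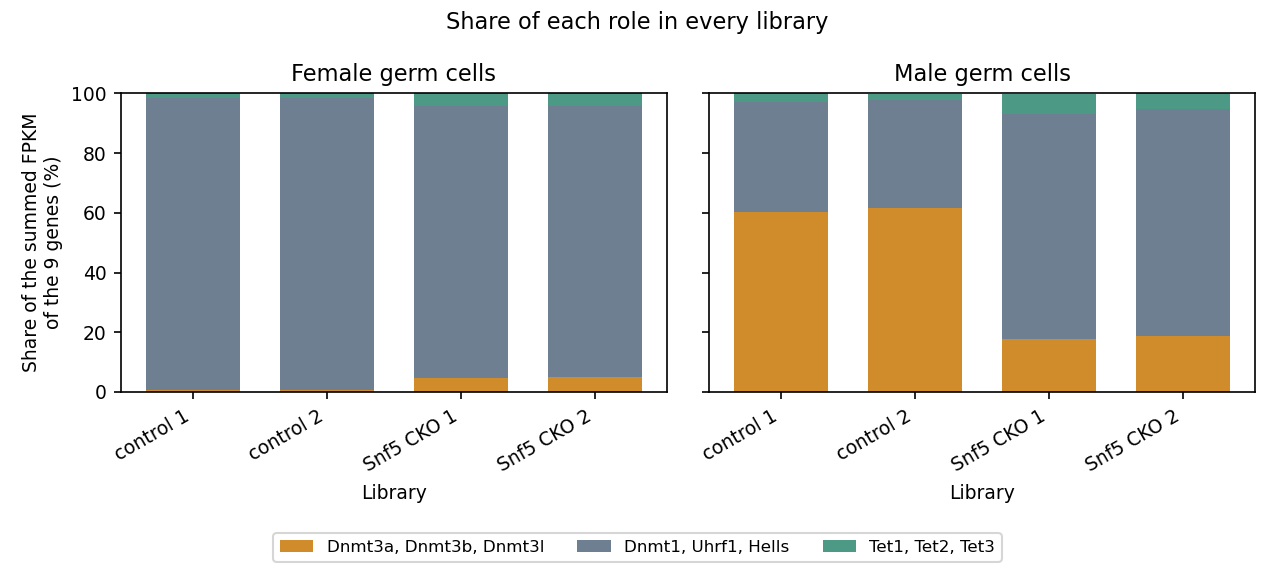
Share of the summed FPKM of the 9 genes held by the de novo, maintenance and Tet genes in each library, as stacked bars from 0 to 100%. The de novo share fell from 60.3% and 61.7% to 17.7% and 18.9% in males and stayed at or below 5.13% in females.

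By mean level the female controls ran in the order Hells, Dnmt1, Uhrf1, Tet2, Dnmt3a, Dnmt3b, Tet3, Tet1 and Dnmt3l, with no overlap between neighbours. In Snf5 CKO females Hells, Dnmt1 and Uhrf1 kept the first 3 places. Dnmt3b, Tet1 and Dnmt3a came next, where Dnmt3b overlapped Tet1 and Tet1 overlapped Dnmt3a, and then Tet3 and Tet2, which overlapped, and Dnmt3l. In male controls the order was Dnmt3a, Hells, Dnmt3l, Dnmt1, Uhrf1, Dnmt3b, Tet1, Tet2 and Tet3, with overlap between Hells and Dnmt3l and between Tet1 and Tet2. In Snf5 CKO males it was Hells, Dnmt1, Uhrf1, Dnmt3b, Dnmt3a, Tet1, Tet2, Dnmt3l and Tet3, with overlap between Dnmt1 and Uhrf1 and between Tet2 and Dnmt3l. The first 4 places were thus held by the same genes in both Snf5 CKO groups, although Dnmt3b and Tet1 overlapped in females.

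The other genes of the pathway were counted from 6 lists of partners, readers, repair enzymes and methyl donor enzymes, 61 genes in all. In females 18 were called higher and 8 lower of 55 tested, and in males 11 higher and 7 lower of 57 tested. Beside these stand 17.2% higher and 21.8% lower of all genes tested in females, and 14.3% and 17.5% in males. The counts of the single lists below stand beside the same shares, and no list was tested as a set. The male balance depended on the scaling, with 8 higher and 9 lower under the common sum, and it was 9 and 9 without Snf5 CKO replicate 1. Their median log2 fold change was 0.35 in females and 0.18 in males, against -0.14 and -0.07 over all genes tested. Reads of genes with near-identical copies, such as Dppa3, Nanog and Pcna, could have been split by the counting. The genes named below are the called ones with the largest fold changes, up to 2 in each direction, in places with their value in the other sex.

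Of the 10 genes listed as maintenance partners, 3 were called higher and 2 lower in females. Dppa3, which binds UHRF1 and keeps it from chromatin and is also a germ cell marker here, rose from 41.2 and 61.3 FPKM to 1406 and 1632 FPKM (log2 fold change 4.89), and Cdca7, which brings HELLS to chromatin, from 7.69 and 6.48 to 60.5 and 42.3 FPKM (2.68). Paf1 and Zbtb24, a transcription factor that acts on Cdca7, fell (-1.53 and -1.12). Paf1 was counted in this list although it is a transcription elongation complex subunit and not a maintenance factor. In males 3 were called higher and 0 lower, with 0 having an adjusted p under 0.05 with a lower value (limma). Pcna, the replication clamp, and Uhrf2, the paralog of Uhrf1, rose by 1.56 and 1.26 on the log2 scale, whereas Dppa3 was high in both groups (1754 and 2025 FPKM in control against 2276 and 2979 FPKM) and was not called (log2 fold change 0.47, adjusted p = 0.402).

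Of the de novo partners 10 were tested in each sex. In females 3 were called higher and 2 lower. Morc1, needed for methylation of retrotransposons in prospermatogonia, rose from 6.19 and 2.53 FPKM to 56.2 and 63.7 FPKM (log2 fold change 3.59), as did Trim28, the corepressor of retrotransposons (1.13), and the H3K9 methyltransferase gene Setdb1 (-1.87) and the H3K36 methyltransferase gene Nsd1 (-1.20) fell. In males 1 was called higher and 4 lower. Morc1 fell from 209 and 151 FPKM to 6.52 and 6.49 FPKM (-4.57), and Kdm1b, an H3K4 demethylase, from 59.6 and 59.1 to 9.86 and 8.02 FPKM (-2.61), while the insulator gene Ctcf rose (1.04). Morc1 thus had the pattern of Dnmt3a, higher in Snf5 CKO females and lower in Snf5 CKO males, and the difference between the sexes was not tested.

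Of the methyl-CpG readers, Mbd2 was called lower in males (31.9 and 32.6 FPKM in control against 13.7 and 15.2 FPKM, log2 fold change -1.11). Of the base excision genes, which repair the products of TET oxidation and deamination, 4 were called higher and 1 lower of 11 tested in females. The largest were the endonuclease gene Apex1 (log2 fold change 2.02), the glycosylase gene Nthl1 (1.79) and, lower, the ligase gene Lig3 (-1.02). In males 0 were called higher and 1 lower of 12 tested, with 4 at an adjusted p under 0.05 and a higher value (limma), and the glycosylase gene Neil2 was the gene called (-2.53).

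Of the Tet partners, 5 were called higher and 1 lower of 8 tested in females and 4 higher and 0 lower of 9 in males, where 1 had an adjusted p under 0.05 with a lower value (limma). In females Nanog, a pluripotency factor that binds TET1, rose from 0.574 and 0.931 FPKM to 43.9 and 49.7 FPKM (log2 fold change 4.77), and Prdm14, a repressor active in primordial germ cells, from 0.205 and 0.236 to 10.1 and 9.32 FPKM (3.13), while Idh1, which makes the TET cofactor 2-oxoglutarate in the cytosol, fell (-1.40). In males Idh2, the mitochondrial enzyme, rose from 13.5 and 13.4 FPKM to 104 and 112 FPKM (2.92), and Cxxc5 from 14.1 and 14.1 to 71.9 and 81.6 FPKM (2.36). Idh2 and Cxxc5 were called higher in females too (3.02 and 2.56), as Nanog and Prdm14 were in males (2.18 and 1.81). Idh1 was not called in males (0.42). Of the methyl donor genes 11 were tested in each sex, with 3 higher and 2 lower in females and 3 higher and 1 lower in males. The folate enzyme gene Mthfd1 rose in both (3.30 in females, 2.32 in males), as did Shmt2 in females (2.95) and the S-adenosylmethionine synthase gene Mat2a in males (1.40). The methionine synthase gene Mtr fell in both (-1.30 and -1.88), and Ahcyl1 fell in females (-1.26).

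**Figure D5:**
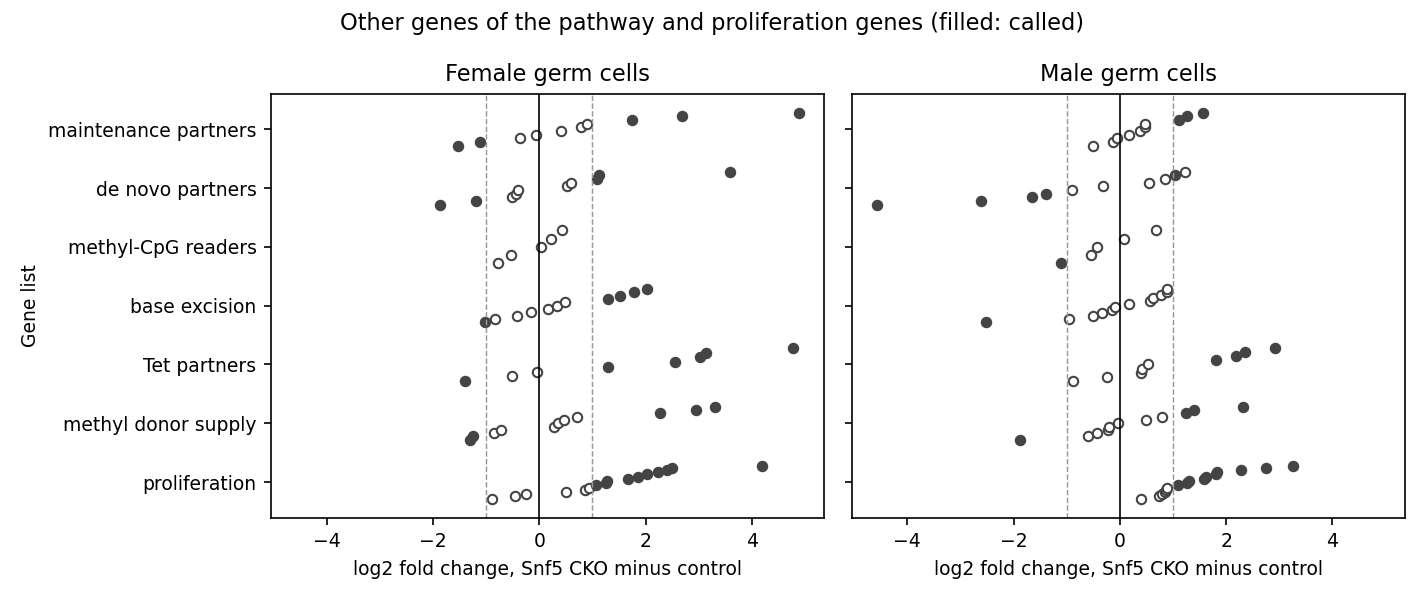
Log2 fold change of Snf5 CKO against control of every tested gene of the 6 pathway lists and the proliferation list, with females on the left and males on the right. Each point is a gene, filled points were called, and dashed lines mark a log2 fold change of 1 in either direction. Proliferation genes lay mostly to the right in both sexes, and the de novo partners reached furthest to the left in males.

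Genes with profiles most like those of 3 members were sought among 13218 other genes listed in both tables with a mean of at least 1 FPKM in at least 1 of them, by the root mean square difference of log2(FPKM + 1) over the 8 libraries after each gene's mean in its table was subtracted. For Dnmt3l these were Drc1 (0.235), Plac8 (0.312) and Rrad (0.322). Drc1, for example, was at 46.5 and 55.7 FPKM in male controls and 0.812 and 1.40 FPKM in Snf5 CKO males, and at or under 0.108 FPKM in females. For Uhrf1 they were Rnmt (0.0556), Timp3 (0.0684) and Snx2 (0.0715), and for Tet1 Peg3os (0.136), Slc25a13 (0.139) and Sulf2 (0.140). The nearest genes of Dnmt3l were less close than those of Uhrf1 and Tet1, on a profile with a much larger range.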

How the data were processed

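RNA-Seq of sorted mouse germ cells gave 1 table per sex, with 4 libraries each. The authors amplified RNA with SMART-Seq v4, made Nextera XT libraries, aligned reads to UCSC mm10 and computed FPKM per locus. The submitters' processing notes name TopHat2 2.2.1 and Cuffdiff 2.1.1, whereas the methods of the study name TopHat 2.1.1 and Cufflinks 2.2.1. The annotation is not given in the sources used here, and the kit does not mark strand. The deposited FPKM were used as they are, and 16 columns of confidence bounds were not used. Groups came from the labels.

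Named loci with a mean of at least 1 FPKM were tested on log2(FPKM + 1) with limma 3.58.1 in R 4.3.3 (eBayes with trend), each sex apart and without a block, with Benjamini-Hochberg adjustment over all loci tested. The script was tested on simulated data. Members were described in full. Of other lists, at most 2 called genes in each direction and sex were named, in places with their value in the other sex. A result of the reader list is not reported here. Members, lists and tests were chosen with earlier results of these data known. Alternatives were another pseudocount, filter, scaling, linear FPKM, a common spread without trend, summed rows, loci of good status, a replicate block and leaving out each library.

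The p-values given are from the fit without a block unless the block is named. The blocked fit was run as an alternative because libraries of the same replicate number deviated alike, and the labels do not say what they share. The male column names call the numbers separate experiments, and the raw file names differ in style by number. Deviations of same-numbered libraries correlated at 0.504 over 11642 female and 0.595 over 12368 male loci.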

Additional observations from a re-analysis of the deposited data

Results flagged for a closer look

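Dnmt3a, Hells and Tet3 had log2 fold changes of opposite sign in the 2 sexes, with no overlap between Snf5 CKO and control in either. The libraries did not overlap for 81.5% of all female and 74.4% of all male genes tested. The share of all genes that met both conditions was not counted, and the difference between the sexes was not tested. The log2 fold change of Dnmt3a was 1.30 in females and -2.49 in males, and both were called. That of Hells was -1.13 in females, called, and 0.67 in males, not called. That of Tet3 was 0.83 in females and -0.33 in males (95% confidence interval -0.80 to 0.15 in males), and neither was called.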

How the results depend on the processing

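With 2 libraries a group and no counts, the depth behind a value is unknown and genes with a mean under 1 FPKM were not tested. Of the 261 values of member genes and Smarcb1 under the alternatives, 247 kept their direction and side of the adjusted p of 0.05, 4 crossed to below it, 9 to above it and 1 changed sign. The sign change was that of female Dnmt1, which ranged from -0.064 (without Snf5 CKO replicate 1) to 0.45 when 1 library was left out. Changes of filter, trend or block, summed rows and loci of good status left each log2 fold change as in the main fit. Only the adjusted p could move under these. The count of 247 ignores the fold limit, so that female Hells at -0.96 under median-of-ratios rescaling counts as kept. The number of female members called lower went from 2 to 1 without the filter on low values and with a mean of at least 5 FPKM (Hells alone in both), to 0 with median-of-ratios rescaling, and ranged from 0 to 2 when 1 library was left out. Female pathway genes called lower went from 8 to 3 without the filter. Of all male genes, 1083 were called higher without the filter, against 1772, and 1353 lower with a mean of at least 5 FPKM, against 2160, where fewer genes were tested. Median-of-ratios rescaling moved the median log2 fold change of all female genes by 0.15, and the common sum that of all male genes by -0.16. With the replicate number as a block, an alternative that pairs libraries of the same number, the counts of members called did not change (3 higher and 2 lower in each sex), and the adjusted p crossed 0.05 for female Uhrf1 (0.034), male Dnmt1 (0.000268) and male Tet2 (0.00948) alone among the members. Leaving out a library leaves 1 in its group, which is assumed to vary like the others.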
